A study of Caenorhabditis elegans with 4 samples.

Results

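Regions enriched by ChIP of GFP-tagged F23B12.7 in young adult Caenorhabditis elegans were called in 3 lists. Of the 2621 regions of the combined list, 248 (9.46%) were also called in each ChIP replicate taken alone. These 248 shared regions were chosen by the authors' calls: each overlaps, by at least 1 bp, a region of the replicate 1 list and a region of the replicate 2 list. The remaining 2373 combined regions comprise 752 called in replicate 1 alone, 56 called in replicate 2 alone and 1565 called in neither. By the same overlap, 1000 combined regions (38.2%) were met by replicate 1 and 304 (11.6%) by replicate 2. Strength of signal decides a call, so the q-values, the counts behind them and any measure that moves with them describe the shared regions and do not test them.

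The worms were hermaphrodites of strain OP429, of genotype unc-119(ed3) III with the integrated transgene wgIs429, which adds F23B12.7 fused to GFP and FLAG together with an unc-119(+) rescue gene. They were made by particle bombardment, and the genotype label lists no change of the endogenous F23B12.7 gene. ChIP-seq (immunoprecipitation of crosslinked chromatin, then sequencing) used an antibody to GFP on worms grown at 20 °C and fixed in 2% formaldehyde, and 10% of each lysate was kept as input. The labels give 2 ChIP and 2 input samples, all of this strain and stage. There is no ChIP from worms without the tag, and nothing in the labels says whether the replicates came from separate cultures, so differences between them may be technical.

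As background, the protein made by F23B12.7 belongs to the CBF/MAK21 family, with human CEBPZ and yeast Noc1 (also called Mak21). CEBPZ was described as a factor acting at CCAAT-box promoters, and the yeast protein works in the nucleolus in assembly of the large ribosomal subunit. Tandem copies of the large ribosomal RNA genes lie at the right end of worm chromosome I. A called region in ChIP-seq spans the reads around a contact, and its edges and midpoint place that contact only as finely as the number of reads allows. Genes, promoters and sequences at the regions were not analysed here, since coordinates are on WormBase build WS180 and the annotation at hand is of another build.

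At the 239 of them (96.4%) that hold exactly 1 region of each replicate, the replicate midpoints lay a median of 36.5 bp apart, and the combined region was wider than both replicate regions at 171. The 9 others hold 2 regions of at least 1 replicate. No shared region holds more than 2 regions of a replicate. The 248 hold 255 of the 1038 replicate 1 regions (24.6%) and 252 of the 310 replicate 2 regions (81.3%), and cover 14.6% of the combined list's bases. No replicate 1 region overlaps a replicate 2 region outside them.

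**Figure D1:**
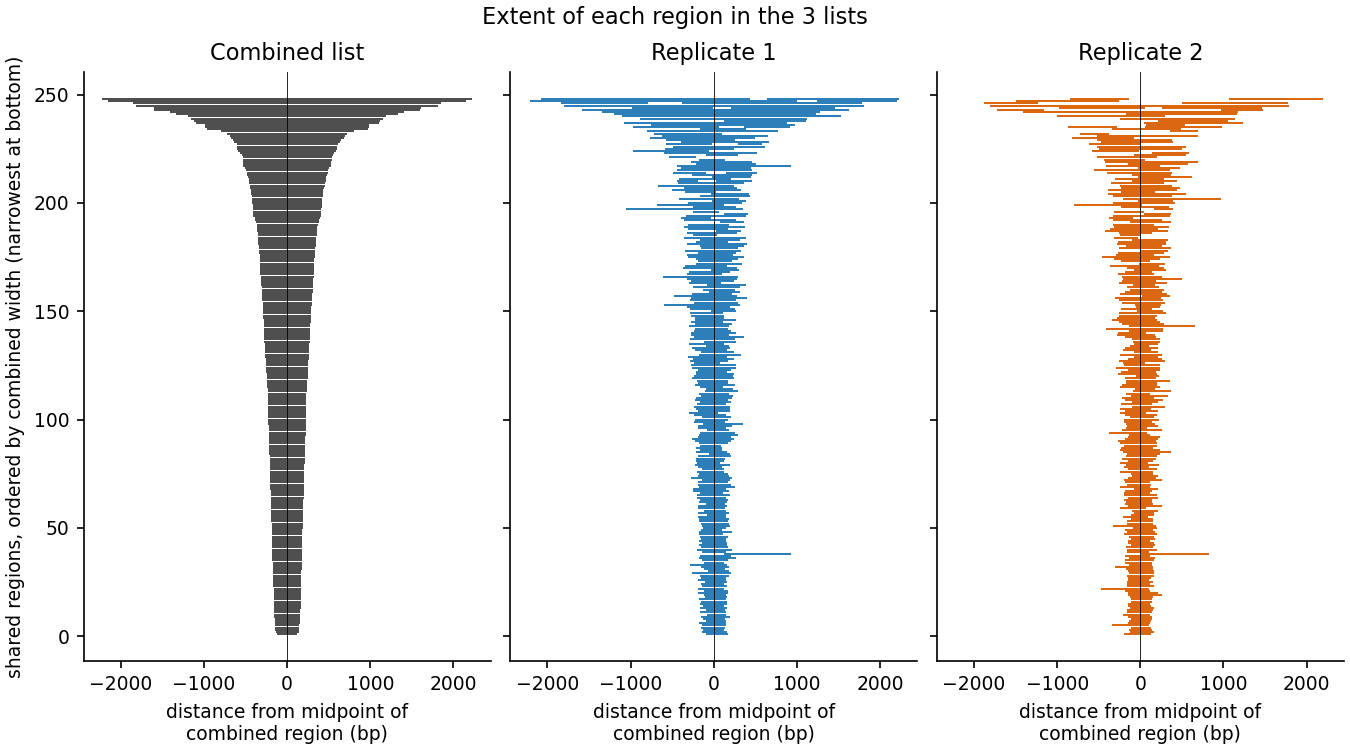
Extent of the 248 shared regions in the combined list (left), replicate 1 (middle) and replicate 2 (right). Each row is 1 region, ordered by combined width with the narrowest at the bottom, and the horizontal axis is the distance in bp from the midpoint of the combined region. Replicate bars mostly lie within the combined bar, and broken rows near the top are the regions a replicate list splits in 2.

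The q-values could be traced to whole-number counts behind each region. PeakSeq compares ChIP reads in a region with reads of a scaled control by a binomial test. All 3969 deposited q-values (2621, 1038 and 310 in the combined, replicate 1 and replicate 2 lists) equalled, within a relative tolerance of 1e-10, the probability of k or more successes in n trials at 0.5 for whole numbers k and n. When every value was shifted by a relative 1e-06, 0 of the 3969 matched. A single pair of k and n gave the value in 3966 cases, and the 3 others are combined regions. The deposited q-values therefore equal unadjusted tail probabilities of those counts. Here k is called the ChIP count and n minus k the control count. They were solved from the deposited values, and the scaling of the control is not stated.

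At the 239 sites the median ChIP count was 54 in replicate 1 (95% interval of the median 51 to 57) and 37 in replicate 2 (36 to 40), with median control counts of 11 and 7. The ChIP count was larger in replicate 1 at 209 sites, larger in replicate 2 at 28 and equal at 2. The ratio of ChIP to control count ran the other way. Its median was 4.62 in replicate 1 (4.50 to 4.91) and 5.63 in replicate 2 (5.29 to 5.83), and it was lower in replicate 1 at 194 sites and higher at 45. Site by site, the replicate 1 ratio was a median of 0.861 times the replicate 2 ratio (0.839 to 0.884; middle 50% of sites 0.759 to 0.958). The replicate that gave more calls thus had higher counts at the same sites and a lower ratio over control. At the 51 sites where widths were within 10% and midpoints within 50 bp, the ratio of replicate 1 was 0.844 times that of replicate 2, the same order with nearly equal extents. Medians over the whole lists were 4.25 for replicate 1 and 5.48 for replicate 2. All of these ratios carry the calls, since each region had to pass the limit of its list. A smaller count needs a higher ratio to reach the same q-value. The weakest q-value was also lower in replicate 2, 4.51e-05 against 1.36e-04 in replicate 1. The part of these limits, of the fewer calls of replicate 2 and of the scaling of the control in this difference was not tested.

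Per base, the ChIP count was higher in replicate 1 at 221 sites, by a median of 1.34 times (1.30 to 1.38). The control count per base was higher at all 239, by a median of 1.57 times (1.53 to 1.60; middle 50% of sites 1.45 to 1.71). Control counts carry a scaling that is not stated and may differ between the lists. The control difference is therefore not read as a difference in background at the sites. Spearman's rho between the replicates over the 239 sites was 0.74 for the ratio, 0.67 for the ChIP count and 0.81 for the control count. These values are descriptions, because the sites share their libraries and all passed both calls. A wider call also takes in more counts, and the rho of the replicate widths was 0.58. Whether the 2 lists had separate controls is not stated. The rho of the control count and that of the ratio are therefore not read as agreement of the replicates. The combined ChIP count was 1.02 times the sum of the replicate ChIP counts (median; middle 50% of sites 0.921 to 1.10), and the combined control count 1.06 times the sum of the replicate control counts. The combined ratio, 4.64 (4.40 to 4.87), lay close to that of replicate 1.

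**Figure D2:**
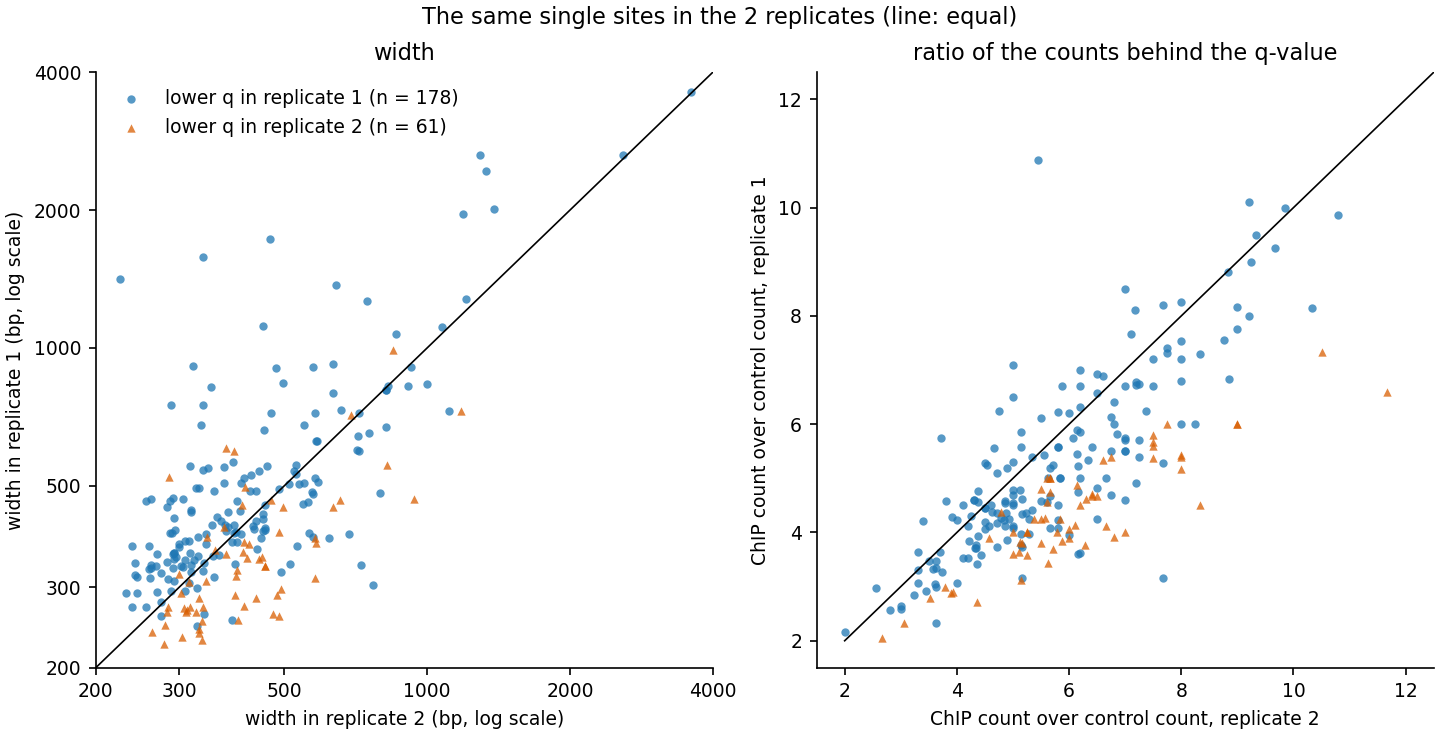
The 239 sites with 1 region of each replicate. Left, width in replicate 1 against width in replicate 2 (bp, log axes). Right, ratio of ChIP to control count in replicate 1 against replicate 2 (linear axes). Circles are the 178 sites with the lower q-value in replicate 1, triangles the 61 with the lower q-value in replicate 2, and the line marks equality. Widths scatter on both sides of the line, while most ratios lie below it, 194 of 239.

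Individual sites show the range behind these medians. The region with the lowest q-value of every list spanned 15064011 to 15067636, close to the end of chromosome I (combined q = 6.81e-264). Its counts were 6294 ChIP against 2988 control in the combined list, 4555 against 2114 in replicate 1 and 2779 against 1386 in replicate 2. Those are ratios of 2.11, 2.15 and 2.01, and the combined one is the lowest of the 248. The region with the lowest q-value thus had the lowest combined ratio, in a stretch where the control count alone exceeded 1000 in each list. In replicate 1 the lowest ratio, 2.05, belonged instead to chromosome II from 10547413 to 10549647. The chromosome I region was 3626 bp wide in the combined list, 3618 bp in replicate 1 and 3592 bp in replicate 2.

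The region on chromosome X from 16929208 to 16931882 came next by q-value (combined q = 1.70e-65). It held 464 ChIP against 83 control counts in the combined list, 299 against 51 in replicate 1 and 93 against 15 in replicate 2, ratios of 5.59, 5.86 and 6.20. It was 2439 bp wide in replicate 1 and 1328 bp in replicate 2, so the ratios were alike while the called extents were not. On chromosome III from 3866727 to 3867998 the counts were 189 against 25 in replicate 1 and 114 against 13 in replicate 2, ratios of 7.56 and 8.77. The highest combined ratio, 10.7, belonged to a 442 bp region on chromosome IV from 654686 to 655127, with 100 against 10 in replicate 1 and 69 against 7 in replicate 2. This last region was chosen after its values were seen.

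Widths in the 2 replicates were close in the median and scattered widely. Median width at the 239 sites was 396 bp in replicate 1, 392 bp in replicate 2 and 495 bp in the combined list. The width ratio of replicate 1 to replicate 2 had a median of 1.03 (0.994 to 1.09), and the middle 50% of sites fell between 0.861 and 1.24. Replicate 1 was wider at 130 sites, narrower at 107 and equal at 2. It was at least 1.5 times as wide at 33 sites, against 21 where replicate 2 was, and at least 2 times as wide at 11 against 3. The wider replicate was usually the one with the lower q-value (169 of 239 sites, 70.7%). Where replicate 1 had the lower q-value the median width ratio was 1.11 (178 sites), and where replicate 2 had it the ratio was 0.822 (61 sites). A wider call takes in more counts, and the q-value is a tail of those counts. Width and q-value are therefore tied by construction, and nothing is read from this order.

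The largest ratio, 6.27, was on chromosome II from 11979571 to 11980393, where replicate 1 called 1411 bp (95 ChIP against 30 control counts) and replicate 2 called 225 bp (23 against 3). On chromosome IV from 8431625 to 8433227 the widths were 1577 and 336 bp (ratio 4.69), and from 4469838 to 4471818 they were 1730 and 466 bp (3.71). The next were chromosome I from 12966527 to 12967113 (911 and 321 bp, 2.84) and chromosome II from 13834270 to 13834976 (750 and 288 bp, 2.60). The smallest ratio, 0.394, was on chromosome V from 18967217 to 18967937, with 303 bp in replicate 1 and 770 bp in replicate 2 although both held a ChIP count of 47. The other 4 of the 5 smallest ratios ran up to 0.542. They lay on chromosome IV from 9196311, on X from 5484968, and on II from 2889124 and from 4299274.

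The combined region was the widest of the 3 calls at most sites. It was a median of 1.17 times as wide as the replicate 1 region (1.13 to 1.21) and 1.22 times as wide as the replicate 2 region (1.18 to 1.27). It was wider than both at 171 of 239 sites (71.5%), narrower than both at 7, and enclosed both at 105 (43.9%). At none of the 239 did it equal the union of the replicate regions. Over all 248, replicate 1 regions covered 79.4% of the combined bases and replicate 2 regions 67.7%. The width ratio also rises when sites are sorted by combined width, but that width is its numerator, so scatter in it alone gives such a rise and nothing is read from it. In quartiles of combined width, from narrowest to widest, the combined region was 1.09, 1.17, 1.22 and 1.30 times as wide as that of replicate 1, and 1.12, 1.17, 1.35 and 1.52 times as wide as that of replicate 2. Over the same quartiles the combined ratio of ChIP to control was 5.03, 5.21, 4.49 and 3.67. The median combined ChIP count was 73 in the narrowest quartile and 130.5 in the widest. A smaller count needs a higher ratio to be called, so the low ratio of the widest quartile is not read as a property of broad sites.

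Regions called in 1 replicate gave a smaller excess. The combined region was a median of 1.17 times as wide as the replicate 1 region where both replicates called it, and 1.09 times where replicate 1 called it alone (752 sites). For replicate 2 the medians were 1.22 at shared sites and 1.08 at the 56 called in replicate 2 alone. Among combined regions of 300 to 500 bp the same medians were 1.13 (117 shared sites) against 1.09 (337 sites) for replicate 1, and 1.16 against 1.09 (25 sites) for replicate 2. Counts differed the same way. The combined ChIP count was 1.73 times the replicate 1 count at shared sites (1.69 to 1.78) and 1.54 times at sites called in replicate 1 alone (1.51 to 1.57). It was 2.42 times the replicate 2 count at shared sites (2.37 to 2.53) and 1.84 times at sites called in replicate 2 alone (1.68 to 2.09). These count ratios carry the rule, since the other replicate's reads decide whether a site is shared.

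Closeness of midpoints is partly set by the rule, since both replicate regions must meet the same combined region. At 247 of the 248, the regions of the 2 replicates with the longest overlap with it also overlap each other. At the other, on chromosome II from 8743129, the longest overlaps fall on different parts, and the replicate regions overlap in pairs. Within that limit, the absolute offset between replicate midpoints had a median of 36.5 bp (33 to 45) and a middle 50% of 16.75 to 88.5 bp. It was at most 50 bp at 143 sites (59.8%), at most 100 bp at 187 (78.2%) and at most 200 bp at 221. Both edges lay within 50 bp at 66 sites (27.6%) and within 100 bp at 142 (59.4%). The signed offset, replicate 1 minus replicate 2, had a median of -1.5 bp (-11.5 to 3.5). Replicate 1 lay to the right at 113 sites and to the left at 124. Its left edge was further left at 138 sites and further right at 97 (median -14 bp, -26 to -1). Its right edge was further right at 126 and further left at 112 (median 6 bp, -5 to 16). The overlap of the replicate regions was a median of 75.6% of their union. From the narrowest to the widest quartile of combined width the median offset was 24.25, 30, 54 and 95.75 bp, which was 7.53%, 6.88%, 9.86% and 9.77% of the combined width.

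**Figure D3:**
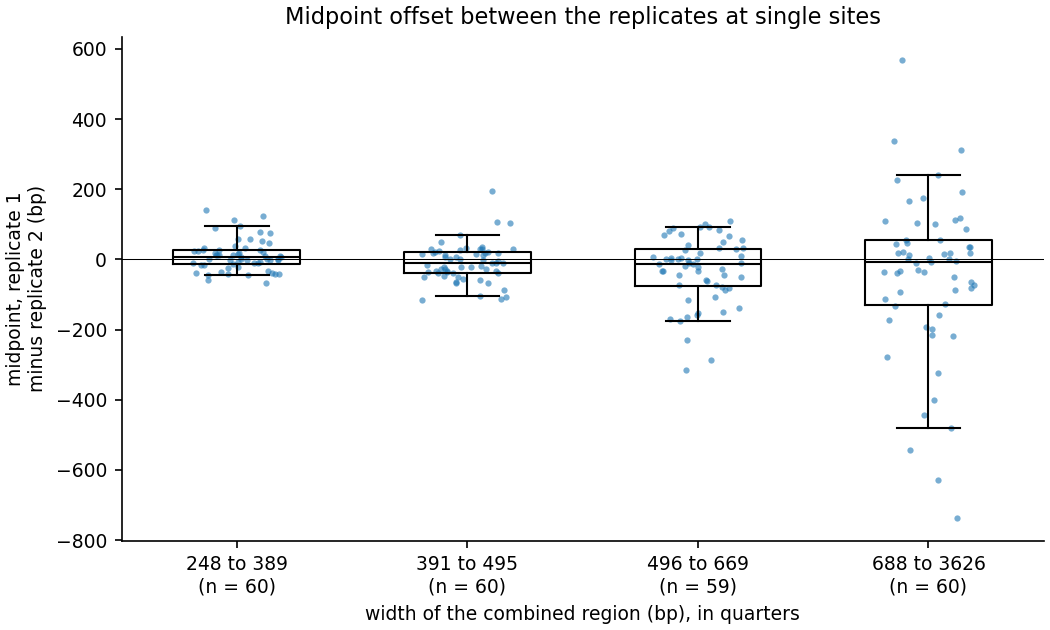
Signed midpoint offset, replicate 1 minus replicate 2 (bp), at the 239 sites, in quartiles of combined width from narrowest (left) to widest (right). Points are sites, boxes span the middle 50% with the median as a line, and whiskers run to the 5th and 95th percentiles. The spread widens with width while the medians stay near 0.

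Offsets over 200 bp occurred at 18 sites, and at 14 of them the regions still had 1 edge within 100 bp of each other. Replicate 1 was the wider at 14 of the 18, and its midpoint lay to the left at 13. The largest offset, -737 bp, was on chromosome V from 11887768 to 11889967, where replicate 1 called 1963 bp and replicate 2 called 1191 bp. Offsets of -628, 569.5, -542.5 and -479.5 bp followed on chromosome II from 11979571, on II from 10541826, on IV from 8431625 and on X from 16929208. At the opposite end, both edges lay within 10 bp at 6 sites. On chromosome III from 931226 to 931776 the replicate regions were 453 and 454 bp wide with the same right edge. There the counts were 134 ChIP against 36 control in replicate 1, 95 against 22 in replicate 2 and 165 against 57 in the combined list. The combined ChIP count was below the sum of the replicate counts there, although the combined region was wider.

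At 4 shared regions the combined q-value was not the lowest of the 3, and that region on chromosome III was one of them. A second, on chromosome I from 3171486 to 3171883, had 125 ChIP counts against 52 control in the combined list, 108 against 37 in replicate 1 and 83 against 24 in replicate 2, with widths of 398, 396 and 395 bp. Its extent was the same in all 3 lists to within a few bp, yet the combined ChIP count was again below the sum. The others were chromosome III from 2169505 to 2169804 and chromosome II from 9617061 to 9617417.

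The 9 shared regions split by a replicate were mostly wide. In all, 8 hold 2 replicate 1 regions, 5 hold 2 replicate 2 regions and 4 hold 2 of each. Splitting occurred in 7 of the 33 shared regions wider than 1000 bp. On chromosome III from 8443599 to 8447305 replicate 1 called 1056 and 2164 bp regions and replicate 2 called 644 and 1280 bp regions that overlap them in pairs. On chromosome II from 6345824 to 6349037 replicate 1 called 974 and 1249 bp and replicate 2 called 1031 and 1202 bp, again in register. The widest shared region, on chromosome II from 8743129 to 8747577 (4449 bp), held 2514 and 1581 bp regions in replicate 1 and 718 and 1127 bp regions in replicate 2. On chromosome V from 723959 to 728265 (4307 bp), replicate 1 called 3216 and 961 bp and replicate 2 called 1243 bp only. The reverse arrangement occurs once. On chromosome II, 1 replicate 1 region (9617365 to 9618173) and 1 replicate 2 region each overlap 2 shared regions, which lie 214 bp apart. The 239 sites therefore rest on 238 regions of each replicate.

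The overlap rule was seldom a close decision. The smallest overlap was 53 bp, at chromosome II from 9617061 to 9617417, and the next were 219 bp at chromosome IV from 2177641 to 2177888 and 225 bp at chromosome II from 11979571. Just outside the rule, 3 regions called in replicate 1 missed the nearest replicate 2 region by 335 bp (chromosome III from 1419493), 385 bp (II from 13521871) and 420 bp (V from 15186261). Of the 808 regions called in 1 replicate, 14 lay within 1000 bp of a region of the other. The narrowest shared regions were 248, 276 and 288 bp wide, on chromosomes IV, II and III, and 0 of 343 combined regions under 248 bp were shared.

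Shared regions stood high in the combined list, as the rule makes likely. Of the 100 lowest combined q-values 83 belonged to shared regions, of the next 100 57, then 34, 21 and 25, and of ranks 501 to 1000 4.8%. The quartile with the lowest q-values held 236 of the 248. The lowest q-value outside the shared regions ranked 22, on chromosome III from 9052394 to 9054631. It held 279 ChIP against 83 control counts in the combined list and 137 against 47 in replicate 1. The lowest called in neither replicate ranked 76, on chromosome X from 8016863 to 8018698, with 165 against 50 counts over 1836 bp. Both are broad with ratios of 3.36 and 3.30, below the shared median of 4.59. That median is not a comparison at like width, since broad shared regions had lower ratios too. In the widest quartile of sites with 1 region of each replicate (60 sites, 688 to 3626 bp) the median was 3.67.

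Shared regions had higher counts and greater widths than the remaining ones, as measures close to the rule. The median combined ChIP count was 97 at shared regions and 52 at the remaining ones, against control counts of 20 and 15, and the ratio was 4.59 (middle 50% 3.88 to 5.71) against 3.54 (2.95 to 4.22). Per 100 bp the ChIP count was 18.3 against 14.0, while the control count was 3.84 against 3.94. Median width was 506 bp against 358 bp. Within the best-scored quartile (lowest q-values) the widths were 516.5 and 519 bp and were alike, while the ratio was 4.64 at shared against 3.98 at remaining regions. Regions over 1000 bp made up 33 of the 248 shared and 88 of the 2373 remaining regions, and 12 of the 18 combined regions over 2000 bp were shared.

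Along the genome, chromosome I held fewer shared regions than the others. Of its 311 combined regions 14 were shared (4.50%, 95% Wilson interval 2.70% to 7.41%). Chromosome III had the highest share, 67 of 579 (11.6%, 9.22% to 14.4%), and chromosomes IV, II, V and X had 10.6%, 9.75%, 9.43% and 8.43%. In the best-scored quartile the share was 19.0% on chromosome I and 36.2% to 40.5% on the rest. Signal at the shared sites differed there as well. The median combined ratio of ChIP to control over the sites of chromosome I was 3.02 (14 sites), against 4.38 to 5.07 on the other chromosomes, with a control count of 38 against 18 to 24. No ratio by chromosome was taken for the remaining regions, and the part of these lower ratios in the lower share was not tested. Intervals cover counting error only, and neighbouring regions are not independent.

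**Figure D4:**
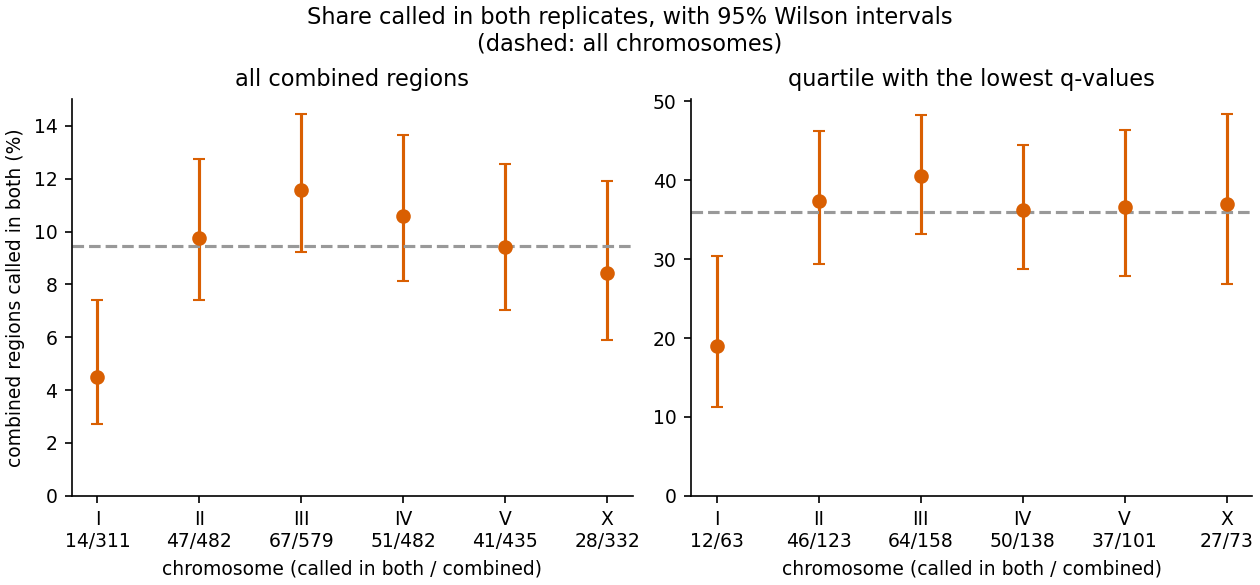
Share of combined regions called in both replicates (%), by chromosome, for all combined regions (left) and for the best-scored quartile (right). Points are shares, bars are 95% Wilson intervals, and the dashed line is the share over all chromosomes. Chromosome I is lowest in both panels, at 4.50% and 19.0%.

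Position within a chromosome separated the groups little. With the furthest region end standing for chromosome length, 93 of 248 shared midpoints (37.5%, 31.7% to 43.7%) and 40.2% of the remaining ones (38.2% to 42.2%) fell in the middle 33.3% of their chromosome. Shares in the middle were lower for shared than for remaining regions on chromosome IV (27.5% against 41.1%), V (31.7% against 43.7%) and X (28.6% against 33.9%), and higher on I (57.1% against 40.1%, 14 shared regions), II (42.6% against 41.1%) and III (44.8% against 39.8%). The longest stretches without a shared region ran from 1 to 3171485 on chromosome I and from 15874130 to 18967216 on V (3.17 and 3.09 Mb). They held 60 and 30 remaining combined regions. Those of II, IV, X and III were 1.56 Mb (from 7003343), 1.55 Mb (from 9995575), 1.43 Mb (from 8036884) and 0.794 Mb (from 1).

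At short gaps, shared regions over all chromosomes had a shared neighbour more often than the remaining regions did. Another shared region was within 10 kb of 39 of 248 (15.7%, 11.7% to 20.8%), against 213 of 2373 remaining regions (8.98%, 7.89% to 10.2%). Within 5 kb the shares were 13.7% and 6.07%. Chromosomes II to V had this order at 10 kb, while it was the reverse on I (0 of 14 shared against 5.39% of remaining regions) and X (0 of 28 against 3.29%). The median gap to the nearest shared region was 114 kb for shared and 122 kb for remaining regions. Shared regions also had closer neighbours of any kind, with a median gap of 4.39 kb against 7.90 kb. In the best-scored quartile, counting neighbours in that quartile only, a shared neighbour within 10 kb was found for 15.3% of shared and 9.76% of remaining regions, and any neighbour for 28.8% and 25.5%. Shared neighbours count each other, so the 39 are not independent and their interval is too narrow. The pair on chromosome II from 9617061 to 9618464 is met by the same region of each replicate.

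**Figure D5:**
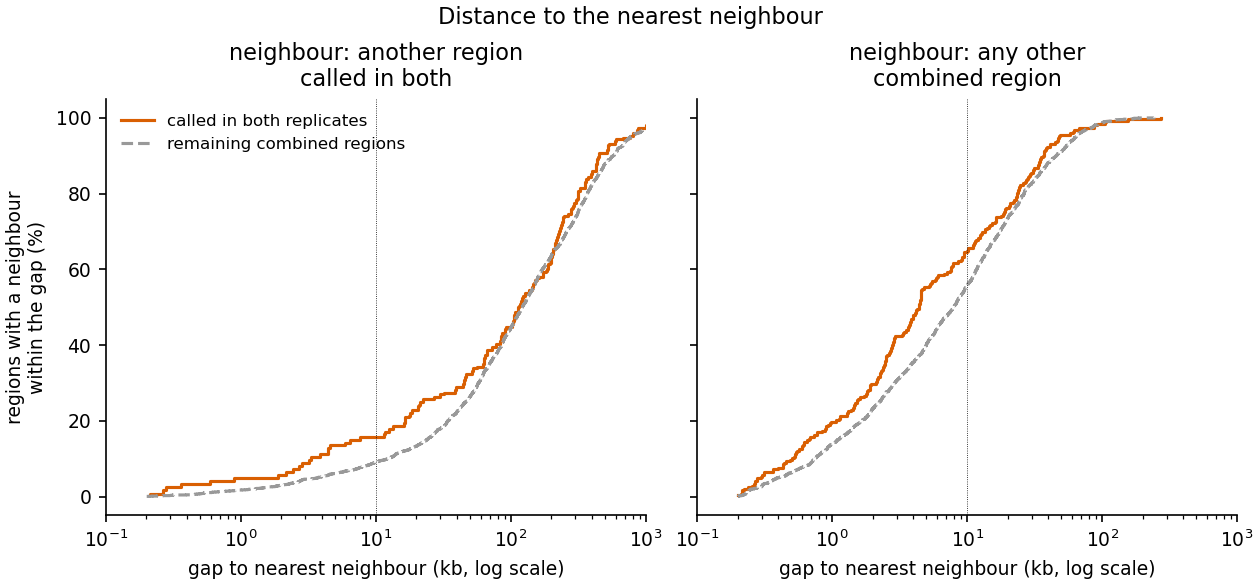
Cumulative share of regions (%) with a neighbour within a given gap (kb, log axis), for shared regions (solid) and remaining combined regions (dashed). Neighbours are shared regions on the left and any other combined region on the right, and the dotted line marks 10 kb. The solid curve is above the dashed one at short gaps, 15.7% against 8.98% at 10 kb on the left.

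The 39 neighbouring shared regions form 18 groups of 2 and 1 group of 3. The group of 3 spans chromosome III from 5013731 to 5024758 with no other combined region in between, and its middle member, from 5018095 to 5018472, had the lowest q-value of the 3 (3.51e-22). The 20 gaps inside groups had a median of 2778.5 bp, with 6 of at most 1000 bp 1 from there to 2000 bp, 10 from 2 to 5 kb and 3 from 5 to 10 kb. Among groups of 2, the shortest spans were on chromosome II from 9617061 to 9618464 (gap 214 bp) and on IV from 2388783 to 2390676 (894 bp). Other small gaps were those on II from 11545130 to 11547532 (gap 267 bp) and on IV from 17277924 to 17281571 (280 bp). Regions in groups had a median width of 655 bp, against 495 bp for the other 209. No group lies on chromosome I or X, while 12 of the 47 shared regions of chromosome II are in one.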

How the data were processed

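The authors called regions with PeakSeq on WormBase WS180, per the file headers and contents, and deposited 1 q-value per region. For the aligner, PeakSeq version, q limit, control of each list and making of the combined list, nothing is stated in the labels or headers. Read depth per library is unknown. Overlaps, widths, midpoints, gaps and counts were computed with Python 3.11.15, pandas 2.3.3, NumPy 2.4.6 and SciPy 1.17.1. Counts were solved by matching each q-value to binomial tails with totals up to 20000, a step added after the data were seen. Where several replicate regions met a shared region, the longest overlap was used. The code was tested on simulated lists and tails. Shares have 95% Wilson intervals and medians 95% order-statistic intervals. Regions are not replicates, so no test was run over them. The members, measures and lists were chosen with earlier results of these data known. Regions were named by rule: the 5 largest and 5 smallest width ratios, the 5 largest offsets, the 3 nearest each side of the overlap rule, the 3 largest groups, the 3 widest and 3 narrowest, the longest stretch per chromosome, the 5 lowest q-values and those whose combined q-value was not the lowest. Others named, such as ranks 22 and 76, other groups, splits and near-identical calls, were chosen after their values were seen.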

Additional observations from a re-analysis of the deposited data

How the results depend on the processing

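Of 61 alternatives, 51 planned and 10 chosen after seeing the data, 45 left the result within its interval or within 1.5 times its count, 13 moved it and 3 turned its direction. The number of shared regions was 119 with the better-scored 50% of each list, and 304 to 1000 when 1 replicate alone decided. Split regions numbered 2 among those of 1000 bp or narrower. The share with another shared region nearby was 5.65% within 2 kb, 32.3% within 50 kb, 11.2% under a reciprocal overlap of 50% and 15.5% to 34.2% with 1 replicate left out. It stayed above that of the remaining regions in 8 of 8 alternatives. The central share was 56.0% for the central 50% of a chromosome and 37.2% to 40.0% with 1 replicate left out. Without replicate 2 it was 40.0%, above the 39.9% of the other regions, a reversal. For chromosome III the share was 40.5% in the best-scored quartile and 13.6% to 39.0% with 1 replicate left out. For chromosome I these were 19.0% and 6.43% to 28.9%. The width difference, shared minus remaining, was 148 bp, 96 bp under a reciprocal overlap of 50%, -2.5 bp in the best-scored quartile and -0.5 bp among the 500 lowest q-values, the last 2 reversed. The cause of these changes was not tested, apart from fewer regions or a wider window by construction. Width ratios, offsets and the ratio of counts, 0.844 to 0.862 across alternatives, did not move out of their intervals. The counts are small, with a median replicate 2 control count of 7 at single sites after a scaling that is not stated. No paired analysis was possible because the files hold 1 list per ChIP replicate and none per input, so no test over samples with a replicate block could be fitted. The comparisons of the replicates at the same site are pairings of regions, not of samples.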

Other observations

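The region with the highest q-value in each list had these counts: 15 ChIP against 1 control in the combined list, 33 against 9 in replicate 1 and 39 against 11 in replicate 2. The smallest ChIP counts of any called region were lower, at 12, 20 and 23 in the same order of lists. Over the combined list the median ratio of ChIP to control count was 3.60. Because the values are tails of small whole numbers they repeat: 1106, 456 and 166 distinct q-values serve the 2621, 1038 and 310 regions, so ranks among weak regions are partly arbitrary.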
